A study of Arabidopsis thaliana with 28 samples.

Results

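Roots of Arabidopsis thaliana seedlings that had spent 30 min under 4% oxygen were compared with roots kept for 30 min in a stream of normal air. The arrays were taken by their labelled oxygen level and duration, which gave 2 arrays at 4% oxygen (replicate letters D and F) and 3 arrays in air (letters C, F and G), 5 of the 28 arrays of the series. The other arrays come from roots at 1%, 4%, 8% or 21% oxygen for 0.5, 2 or 48 h. All seedlings were of the ecotype given as col2 and grew on vertical agar plates with 1% sucrose under 12 h light and 12 h dark at 22 °C. At 10 days after germination they were moved into continuous darkness, and premixed gas with 350 ppm CO2 was blown over the plates, so the air controls at 21% oxygen carried the move, the dark and the gas stream as well. The labels also describe the seedlings as 2 weeks old. Each array carried biotin-labelled total RNA of roots, and the labels do not say how many plants or plates went into one sample. Nothing in the labels says that replicates came from separate cultures, so p values measure the spread between these samples, which may be technical.

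Plant cells sense oxygen through the N-degron pathway. In air, cysteine oxidases mark group VII ethylene response factors such as RAP2.12 for destruction, and when oxygen falls these factors persist and switch on a small set of core hypoxia genes. The set is known for the enzymes of fermentation, which regenerate NAD+ without oxygen, for the brakes that limit the response, and for many small proteins of unknown function. Roots are a tissue in which oxygen supply often falls short of respiration.

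The values are MAS5 signals, a linear brightness for each probe set, the group of probes that measures a transcript. Median signals were between 38.1 and 43.2 on the 5 arrays. Differences are log2 values of the signal plus 6, so the fold changes of dim genes are understated. A probe set was taken as past the threshold at an adjusted p under 0.05 in limma, adjusted over all 22746 probe sets. The annotation names 1 gene for 13513 of them, so many known hypoxia genes have no named probe set here. The tissue was checked on marker genes. The root hair expansins EXPA7 and EXPA18 summed to signals of 236 and 290.5 on the 4% arrays D and F, against 225, 267 and 202 on the air arrays C, F and G. The 5 leaf photosynthesis genes with a named probe set (SBPASE, PSBW, LHCB4.1, RCA and PRK) summed to 386.5 and 1346 on the 4% arrays D and F, against 638, 847 and 399.7 on the air arrays C, F and G. Photosynthesis transcripts were therefore present on all 5 arrays, highest on the 4% array F and lowest on the 4% array D, and none of the 5 genes passed the threshold. These are bulk samples, in which fewer cells of a type and less RNA per cell cannot be told apart.

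After 30 min at 4% oxygen 10 probe sets were higher than in air, which is 0.044% of those tested, and none was lower (0%). Without adjustment, 167 were higher and 167 lower at p under 0.05, 0.734% in each direction. The median log2 fold change over all probe sets was -0.01. Of the 10, 6 measure 1 named gene, and all 6 are members of a list of hypoxia-inducible genes, beside 27 of the 13355 genes with a named probe set. The list was chosen with earlier results of these data known, so the overlap is a description and no independent support. The 6 genes are AT3G10040, AT4G10270, AT4G33560, AT3G27220, AT5G44730 and AT4G24110. Their log2 fold changes lay between 2.33 and 5.35, with a median of 3.99.

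The regulator among the genes that rose was AT3G10040, also known as HRA1, a trihelix transcription factor that binds RAP2.12 and dampens the hypoxia response. AT3G10040 had signals of 945 and 452 on the 4% arrays D and F, against 14.5, 15.2 and 18.3 on the air arrays C, F and G. The 3 air arrays lay close together and both 4% arrays far above them, array D above array F. The log2 fold change of AT3G10040 was 4.91 ± 0.70 (SE), 30.1-fold, with an adjusted p of 0.00298 (limma). It was the single named probe set of the oxygen-sensing list, which holds the cysteine oxidases and the group VII factors.

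A pair of genes encode proteins annotated as wound-responsive, short proteins of little-known function. AT4G10270 had signals of 1017 and 698 at 4% (D and F), against 17.81, 33.9 and 3.42 in air (C, F and G). It had the highest log2 fold change of all probe sets tested, 5.35 ± 0.74 (SE), 40.9-fold, with an adjusted p of 0.00255 (limma). AT4G33560 had signals of 209.7 and 224 at 4%, against 2.21, 17.3 and 5.28 in air, a log2 fold change of 4.11 ± 0.59 (SE) with an adjusted p of 0.00298. The air arrays of both genes were dim and scattered, array F being the highest of the 3, while the 4% arrays were bright. Another 2 members of the wound-responsive family have a named probe set. AT4G28240 had 546 and 652 at 4%, against 526, 404 and 278 in air, an unadjusted p of 0.0299 and an adjusted p of 1. AT4G05070 had 276.5 and 662 at 4%, against 675, 786 and 345 in air, and its groups overlapped.

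AT3G27220 encodes a protein with kelch repeats, and it had the smallest adjusted p of the named genes. Its signals were 312 and 208.5 at 4% (D and F), against 22.7, 25.6 and 20.6 in air (C, F and G). The log2 fold change of AT3G27220 was 3.18 ± 0.36 (SE), 9.04-fold, with an adjusted p of 0.000363 (limma). AT5G44730 encodes a haloacid dehalogenase-like hydrolase and was already well expressed in air. It had signals of 484 and 306 at 4%, against 79.5, 79.4 and 58.8 in air, a log2 fold change of 2.33 ± 0.30 (SE) and an adjusted p of 0.00114. AT4G24110, of unknown function, had 323 and 234 at 4%, against 19.5, 23.4 and 3.41 in air. Its log2 fold change was 3.87 ± 0.62 (SE), with an adjusted p of 0.01, and array G was the low one in air. Over the 6 genes, 4% array D was above 4% array F in 5, and air array G was the lowest air array in 4.

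**Figure D1:**
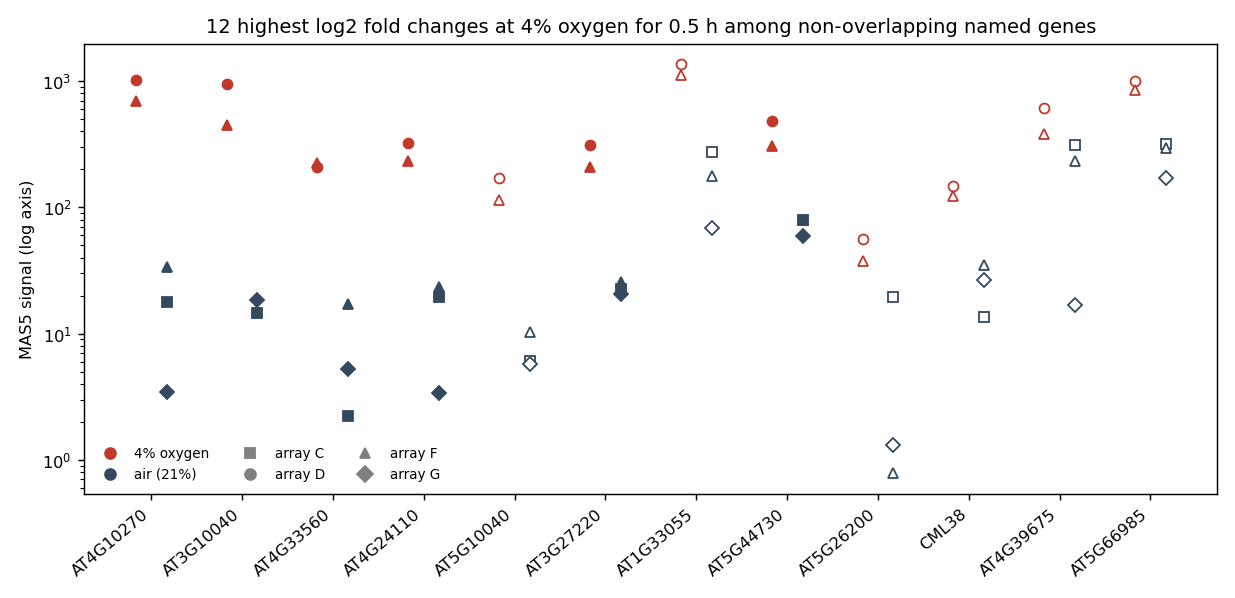
MAS5 signal (log axis) of the 12 genes with the highest log2 fold change among named genes with an unadjusted p under 0.05, no overlap of the groups and a mean signal of at least 20 at 4%, each point 1 array, with the 4% arrays left of the air arrays and the marker shape giving the replicate letter. Filled markers are the 6 genes with an adjusted p under 0.05. For AT4G10270 the 4% arrays sit at 1017 and 698, against 17.81, 33.9 and 3.42 in air, and in all 12 genes both 4% arrays lie above the 3 air arrays, as the rule that chose them requires.

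The other 4 probe sets past the threshold have no gene in the annotation. One of them, 247431_at, shares the smallest adjusted p of all and had signals of 265 and 138 at 4%, against 18.3, 21.6 and 22.6 in air, a log2 fold change of 2.88 ± 0.32 (SE) and an adjusted p of 0.000363 (limma). The probe set 258487_at had 1189 and 976 at 4%, against 62.7, 79.2 and 80.5 in air, a log2 fold change of 3.76 ± 0.60 (SE) and an adjusted p of 0.01. The probe set 247431_at had an adjusted p of 0.0434 with the replicate block and 0.0887 with the 0.5 h arrays alone. For 258487_at it was 0.494 with the replicate block, 0.346 and 0.142 without the 4% array D or F, and 0.0732 and 0.0578 without the air array C or G. The remaining 2 unnamed probe sets had adjusted p values of 0.11 and 0.187 with the replicate block.

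These calls rest on 2 arrays at 4%. A fit without the 4% array D leaves 1 array in that group, and most of these calls did not pass in it. In that fit the adjusted p of AT3G27220 was 0.0409, and it was 0.1 for AT5G44730, 0.111 for AT4G10270, 0.1 for AT4G33560, 0.202 for AT3G10040 and 0.391 for AT4G24110. Leaving out the 4% array F gave an adjusted p of 0.0922 for AT4G33560 and 0.129 for AT4G24110, and leaving out the air array G gave 0.0981 for AT4G24110. Over these fits with 1 array fewer, the log2 fold changes stayed at 2.89 to 3.46 for AT3G27220, 2.00 to 2.65 for AT5G44730, 4.78 to 5.82 for AT4G10270, 3.78 to 4.53 for AT4G33560, 4.38 to 5.44 for AT3G10040 and 3.36 to 4.18 for AT4G24110. Arrays with the same replicate letter deviated together, and with the letter as a replicate block in the fit of all arrays 2 probe sets passed. Of these, 1 was AT5G44730, with a log2 fold change of 2.02 ± 0.26 (SE) and an adjusted p of 0.0357. The adjusted p with the block was 0.0873 for AT3G27220, 0.137 for AT3G10040, 0.187 for AT4G10270, 0.265 for AT4G24110 and 0.481 for AT4G33560. A fit of the 0.5 h arrays alone gave 0.064 for AT5G44730, 0.134 for AT4G10270 and 0.253 for AT4G24110.

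The hypoxia-inducible list has 51 genes, of which 27 have a named probe set. As it was chosen with earlier results of these data known, its counts and medians are descriptions. Of the 27, 26 had a log2 fold change above 0, and 6 passed the threshold. At an unadjusted p under 0.05, 19 were higher and none lower, beside 0.734% of all probe sets in each direction. Both 4% arrays were above all 3 air arrays for 19 of the 27 and below them for none, beside 6.54% of all probe sets above and 8.06% below. The median log2 fold change of the 27 was 1.37, against -0.01 for all probe sets. For the 21 members that did not pass, the median was 1.05, and both 4% arrays were above all air arrays for 13 of them.

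**Figure D2:**
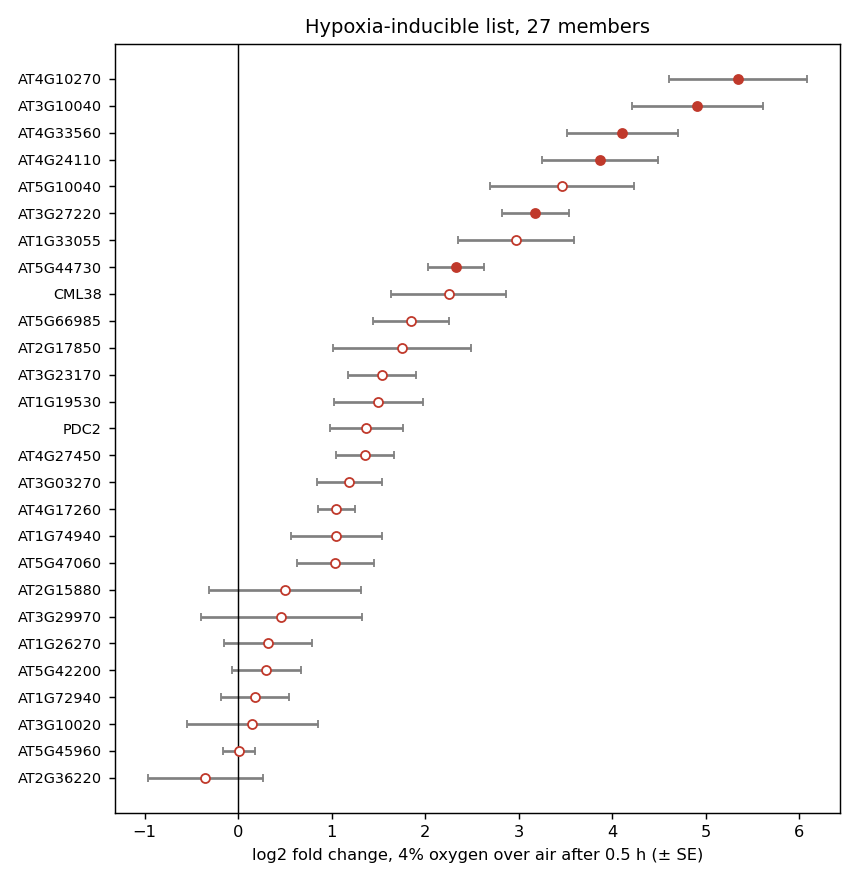
Log2 fold change (± SE of the limma fit) of the 27 measured members of the hypoxia-inducible list, 4% oxygen over air after 0.5 h, sorted from high to low. Filled points are the 6 members with an adjusted p under 0.05. The values run from 5.35 for AT4G10270 to -0.35 for AT2G36220, and 19 members lie above 1.

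Several members below the threshold had large differences and wide errors. AT5G10040, of unknown function, had signals of 169.7 and 115 at 4% (D and F), against 6.08, 10.3 and 5.73 in air (C, F and G), a log2 fold change of 3.46 ± 0.77 (SE) and an adjusted p of 0.271 (limma). It passed, at 0.0108, with the 0.5 h arrays alone. With the replicate block it did not pass, at a log2 fold change of 3.07 ± 1.03 (SE). AT1G33055, also of unknown function, had 1354 and 1111 at 4%, against 274, 178 and 68.9 in air, a log2 fold change of 2.97 ± 0.62 (SE) and an adjusted p of 0.187. With the replicate block within the 0.5 h arrays it passed, at a log2 fold change of 2.65 and an adjusted p of 0.012. That fit was chosen after the data were seen, and with the replicate block over all arrays the adjusted p was 0.585. AT5G66985 had 1003 and 853 at 4%, against 319.6, 295.5 and 171 in air, a log2 fold change of 1.85 ± 0.41 (SE) and an adjusted p of 0.298. The adjusted p was 0.0185 with the letter as a random block and 0.187 with the replicate block. In all 3 genes the groups did not overlap, and air array G was the lowest array. CML38, a calmodulin-like calcium sensor, had 146 and 123 at 4%, against 13.4, 34.8 and 26.4 in air, with an unadjusted p of 0.00177 and an adjusted p of 1. AT2G17850, a rhodanese-like protein, had 57.4 and 67.3 at 4%, against 13.8, 21.8 and 9.0 in air, with an unadjusted p of 0.0284.

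Of the 11 genes of the fermentation list 3 have a named probe set. Lactate dehydrogenase and pyruvate decarboxylase lay above air on both 4% arrays, and none of the 3 passed the threshold. AT4G17260, a lactate dehydrogenase, which turns pyruvate into lactate, had signals of 296 and 267 at 4% (D and F), against 139, 144 and 116 in air (C, F and G). Its log2 fold change was 1.05 ± 0.20 (SE), with an adjusted p of 0.0672 (limma). It passed when the arrays were centred on their medians (0.0263) and when the letter was a random block (0.0132). With the replicate block its adjusted p was 0.191. PDC2, a pyruvate decarboxylase, the entry to ethanol fermentation, had 603 and 425.5 at 4%, against 200.1, 189.8 and 186 in air. The 3 air arrays of PDC2 were nearly equal, and the log2 fold change was 1.37 ± 0.39 (SE), with an unadjusted p of 0.00201 and an adjusted p of 1. The third measured gene of the fermentation list, the aldehyde dehydrogenase ALDH2C4, had 542 and 1164 at 4%, against 946, 1275 and 1148 in air, with a log2 fold change of -0.49 and an unadjusted p of 0.351. Of the 9 measured genes of sucrose breakdown and glycolysis, none had an unadjusted p under 0.05, and their median log2 fold change was 0.05. The glycolytic enzyme TPI, triosephosphate isomerase, had 2298 and 2559 at 4%, against 2173, 2157 and 2359 in air.

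Members of the list with a moderate difference included AT4G27450, annotated as an aluminium-induced protein, with 1011 and 995 at 4%, against 348, 381 and 433 in air. Its log2 fold change was 1.36 ± 0.31 (SE), with an adjusted p of 0.316 (limma). The adjusted p was 0.0387 with the replicate block within the 0.5 h arrays and 0.827 with the replicate block over all arrays. The difference came out at 1.37 in the letter F pair and 1.37 for array D over air arrays C and G. AT3G23170, of unknown function, had 61.2 and 64.5 at 4%, against 14.3, 27.4 and 13.7 in air, with an adjusted p of 0.393. The adjusted p was 0.0185 with the letter as a random block and 0.347 with the replicate block. The universal stress protein AT3G03270 had 380.3 and 499.9 at 4%, against 168, 306 and 127 in air, an unadjusted p of 0.00307 and an adjusted p of 1. AT1G19530, of unknown function, had 639 and 522 at 4%, against 354, 235 and 95.9 in air, with an unadjusted p of 0.00511. AT1G74940 and AT5G47060, which encode small zinc finger proteins of the FLZ family, had log2 fold changes of 1.05 and 1.04 and unadjusted p values of 0.0443 and 0.0197.

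In 8 of the 27 members the groups overlapped. AT3G10020, a gene of unknown function that was bright in air, had 511 and 678 at 4%, against 650.3, 559.7 and 408.5 in air, a log2 fold change of 0.15. AT2G36220 was the one member with a negative log2 fold change, -0.35 ± 0.62 (SE), with 50.5 and 75.4 at 4%, against 64.3, 81.1 and 98.8 in air. AT5G45960, a GDSL lipase, was near the lower end of the signal range on all 5 arrays, between 0.934 and 1.53. The remaining AT1G26270, AT1G72940, AT2G15880, AT3G29970 and AT5G42200 had log2 fold changes between 0.18 and 0.50.

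The letter F arrays offer a comparison within 1 replicate letter, and array D against air arrays C and G a second one that shares no array with it. The median log2 difference of the 27 members was 1.13 for array F at 4% minus array F in air, with 23 above 0. It was 1.62 for array D at 4% minus the mean of air arrays C and G, with 25 above 0. Across the 27 members the differences of both comparisons had a Pearson correlation of 0.98, and across all probe sets one of 0.17. Points of a comparison share their arrays and the scaling, so these are descriptions. In the F pair, 24 probe sets were higher by a log2 difference of at least 2, and 29 were in array D over C and G. These had 14 in common, 58.3% of those in the F pair and 48.3% of those in D over C and G. Of the 14, 7 were members of the hypoxia-inducible list. AT5G26200, a mitochondrial carrier protein outside the list, was also among them, with 56.5 and 37.7 at 4% (D and F), against 19.4, 0.780 and 1.299 in air (C, F and G) and an adjusted p of 1 (limma). In the downward direction, 5 probe sets of the F pair and 23 of D over C and G reached a log2 difference of -2, with none in common.

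**Figure D3:**
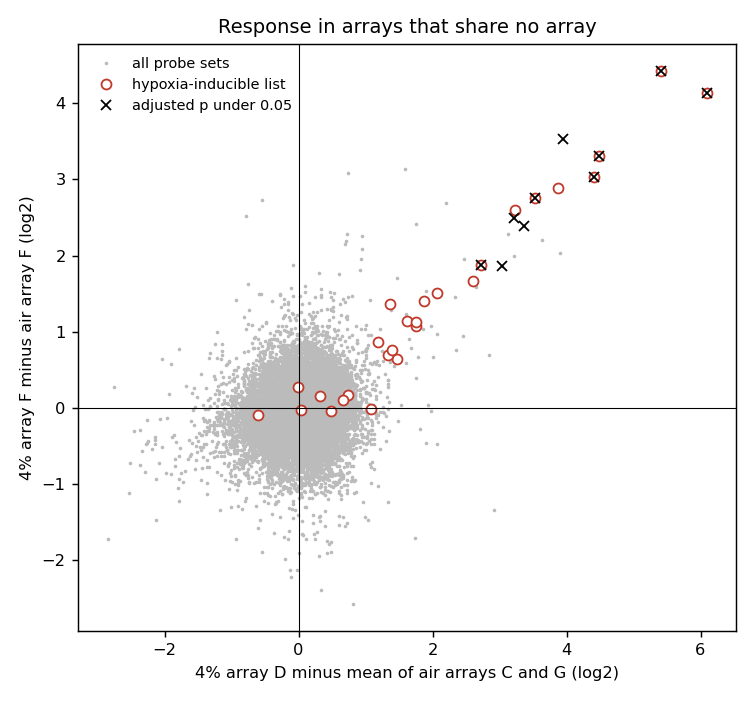
Log2 difference of the 4% array D from the mean of air arrays C and G (x axis) and of the 4% array F from air array F (y axis), for all probe sets (grey), members of the hypoxia-inducible list (open circles) and the 10 probe sets with an adjusted p under 0.05 (crosses). The 10 crosses all lie at 2.72 or more on the x axis and at 1.86 or more on the y axis, and AT4G10270 is farthest to the right at 6.09 with 4.14 on the y axis.

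The 4% array D was above the 4% array F in 19 of the 27 members, and air array G was the lowest air array in 18. The summed signal of the 27 was 10666 and 8527 on the 4% arrays D and F, against 3353, 3118 and 2311 on air arrays C, F and G. Leaf photosynthesis signal was lower on the 4% array D than on the 4% array F, the opposite order to most hypoxia genes, and its part in the results was not tested.

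Outside the hypoxia genes, gene lists chosen for this tissue and treatment held no probe set past the threshold apart from members they share with the hypoxia-inducible list. Of 22 measured universal stress proteins, 19 had a log2 fold change above 0, as had 11010 of the 22746 probe sets tested, and their median was 0.17. An unadjusted p under 0.05 was found for 3, all higher, beside 0.734% of all probe sets. Besides AT3G03270 these were AT3G11930, with 612 and 589 at 4% against 292.5, 474 and 193 in air, and AT3G17020, with 1875 and 2377 at 4% against 1708, 1705 and 1054 in air. Both had an adjusted p of 1 (limma), and air array G was the lowest for each. Of 10 measured calcium signalling genes, CML38 alone had an unadjusted p under 0.05, and the list's median was -0.23. All 6 measured heat shock genes had a log2 fold change below 0, between -0.33 and -0.07, and none had an unadjusted p under 0.05. The ethylene list had 2 measured genes. ARL, a growth regulator that ethylene and brassinosteroid signalling act on, had 231 and 68.7 at 4%, against 72.2, 32.9 and 18.1 in air, with an unadjusted p of 0.0358 and groups that overlapped. The transcription factor EIN3 had 323 and 259.9 at 4%, against 275, 224 and 332 in air.

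Medians near 0 were found for the other lists. The median log2 fold change was -0.14 for 5 rapid stress transcription factors, -0.04 for 4 genes of alternative respiration, 0.01 for 8 prolyl 4-hydroxylases, 0.07 for 11 expansins and -0.12 for 7 starvation genes. By gene symbol, it was -0.07 for 24 cytochrome P450 genes, -0.05 for 6 class III peroxidases, 0.26 for 3 core histones and 0.13 for 3 subunits of NDH-like complex I. None of these genes had an unadjusted p under 0.05. In STZ, a zinc finger repressor that many stresses induce, signals were 60.3 and 79.4 at 4%, against 66.4, 87.5 and 48.8 in air. The redox genes GRX480 and GSTU25, the clock gene GI and the inner root gene AT1G62500 had log2 fold changes of -0.27, -0.08, 0.01 and -0.19, and no root tip marker had a named probe set.

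No gene fell past the threshold. Among named genes with an unadjusted p under 0.05, no overlap of the groups and a mean signal of at least 20 in air, the 12 with the lowest log2 fold change had values between -1.16 and -0.73 and an adjusted p of 1 each (limma). AT4G32640, related to the coat protein SEC24 of transport vesicles, had 61.1 and 89.7 at 4% (D and F), against 130.5, 147 and 268 in air (C, F and G). AT5G26830, a threonyl-tRNA synthetase, had 182 and 223 at 4%, against 380.5, 385 and 395 in air. CHB3, a subunit of chromatin remodelling complexes, had 25.9 and 26.2 at 4%, against 49.8, 49.0 and 52.0 in air. In AT5G26830 and CHB3 the arrays within each group were close together, and the unadjusted p values were 0.0483 and 0.0255. Their log2 fold changes, -0.92 and -0.81 in the main fit, were -0.46 ± 0.22 (SE) and -0.51 ± 0.35 (SE) with the replicate block. Air after 0.5 h has no letter D array. In air after 2 h AT5G26830 had 192.5 on array D, against 310 on E and 336.5 on F. CHB3 had 36.15, 38.41 and 29.69 on the same arrays. AT1G61890, a transporter of the MATE family, had 148 and 164 at 4%, against 254, 238 and 366.5 in air. AT2G39130, annotated as an amino acid transporter, had 81.2 and 71.8 at 4%, against 126, 81.4 and 300.0 in air, so that its lower air array was level with the higher 4% array. Air array G was the highest air array in 9 of the 12. Their median was -0.84 in the fit, -0.61 in the F pair and -1.07 for array D over air arrays C and G. The rule that chose the 12 fixed these signs. With the replicate block their log2 fold changes ran from -1.12 for AT1G35550 to -0.01 for AT2G39130. In the other comparisons the median of the 12 was -0.66 at 1% oxygen and -0.04 at 8% oxygen after 0.5 h, which share the air arrays with 4%, and 0.04 at 4% after 2 h. The 1% arrays carry letters D and F, like the 4% arrays, and the 8% arrays carry letters C and G, which air also has. Letter and oxygen level cannot be told apart in these medians after 0.5 h.

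**Figure D4:**
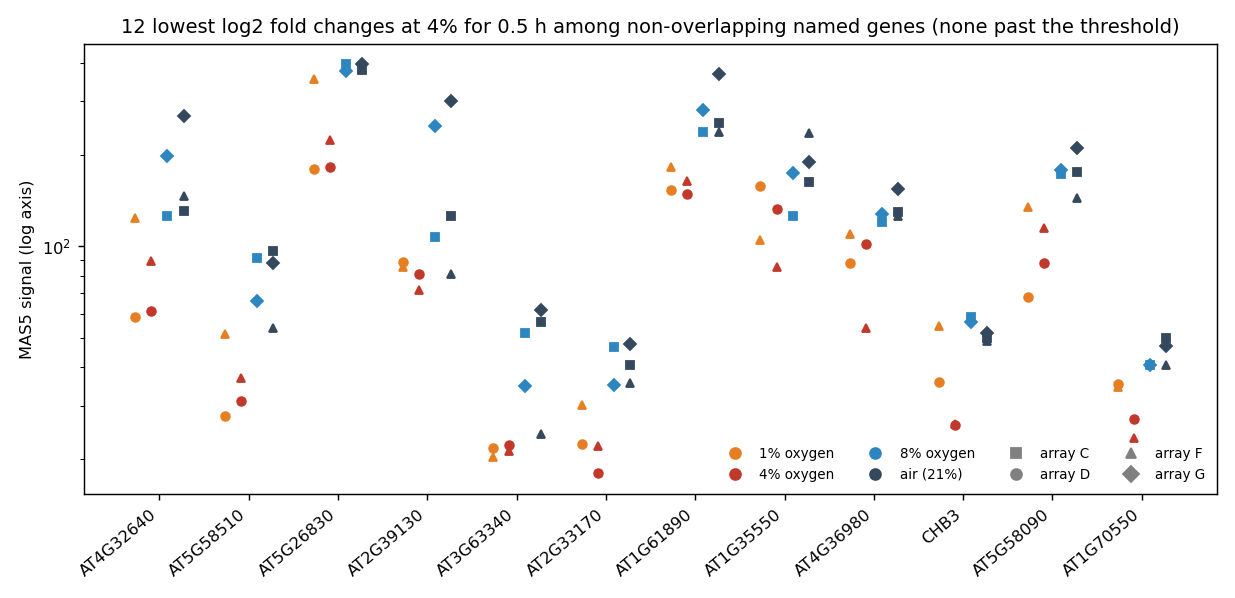
MAS5 signal (log axis) of the 12 genes with the lowest log2 fold change at 4% among named genes with an unadjusted p under 0.05, no overlap of the groups and a mean signal of at least 20 in air, each point 1 array after 0.5 h, in the order 1%, 4%, 8% and 21% oxygen (air) within each gene. Both 4% arrays lie below the 3 air arrays in each gene, as the rule that chose them requires, and none has an adjusted p under 0.05. Air array G (diamond) is the highest air array in 9 of the 12.

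The 4% arrays were next set against the 1% arrays of the same duration (letters D and F). No probe set differed (0%), with a smallest adjusted p of 1 (limma), and 111 had an unadjusted p under 0.05. AT3G10040 had signals of 945 and 452 at 4% (D and F), against 1184 and 485 at 1%, with array D the higher at both levels. The difference on the log2 scale was -0.21, with a 95% interval of -1.82 to 1.39. AT4G10270 had 1017 and 698 at 4%, against 1039 and 650.4 at 1%, a difference of 0.04 (95% interval -1.65 to 1.72). For AT3G27220 the difference was -0.14 (-0.98 to 0.69), for AT5G44730 it was 0.32 (-0.36 to 0.99), for AT4G33560 it was 0.30 (-1.04 to 1.65) and for AT4G24110 it was -0.19 (-1.61 to 1.23). None of these intervals is narrow enough to show equal responses. Of the 27 members of the hypoxia-inducible list, 11 were higher at 4% and 16 lower, with a median difference of -0.13. The one member with an unadjusted p under 0.05 was AT3G23170, with 61.2 and 64.5 at 4%, against 126 and 139 at 1%, a difference of -1.01 (95% interval -1.83 to -0.19) and an unadjusted p of 0.0189.

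Against 8% oxygen (arrays C and G), no probe set passed either (0%), with a smallest adjusted p of 0.0635 (limma), and 351 had an unadjusted p under 0.05. No array letter is shared by the 4% and 8% groups. Of the 27 list members, 25 were higher at 4%, 6 of them with an unadjusted p under 0.05, and the median difference was 0.58. AT4G10270 had 1017 and 698 at 4%, against 486.5 and 99.3 at 8% (C and G), a difference of 1.90 on the log2 scale (95% interval 0.21 to 3.59). AT4G24110 had 323 and 234 at 4%, against 145 and 46.5 at 8%, a difference of 1.66 (0.24 to 3.07). AT5G44730 had 484 and 306 at 4%, against 232.5 and 155 at 8%, a difference of 1.00 (0.32 to 1.67). In each of these 3 genes 8% array C was above 8% array G. AT3G27220 had 312 and 208.5 at 4%, against 177 and 183 at 8%, a difference of 0.49 (-0.34 to 1.32). AT4G27450 was the member nearest to no difference, with 1011 and 995 at 4%, against 943 and 1032 at 8%.

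Set side by side against the same 3 air arrays, the median log2 fold change of the 27 list members was 1.2 at 1%, 1.37 at 4% and 0.79 at 8%. The 1% and 4% arrays share letters D and F, while the 8% arrays have C and G, so letter and level cannot be told apart here. The 6 genes past the threshold at 4% had medians of 3.94 at 1%, 3.99 at 4% and 2.75 at 8%, a description, since they were chosen at 4%.

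**Figure D5:**
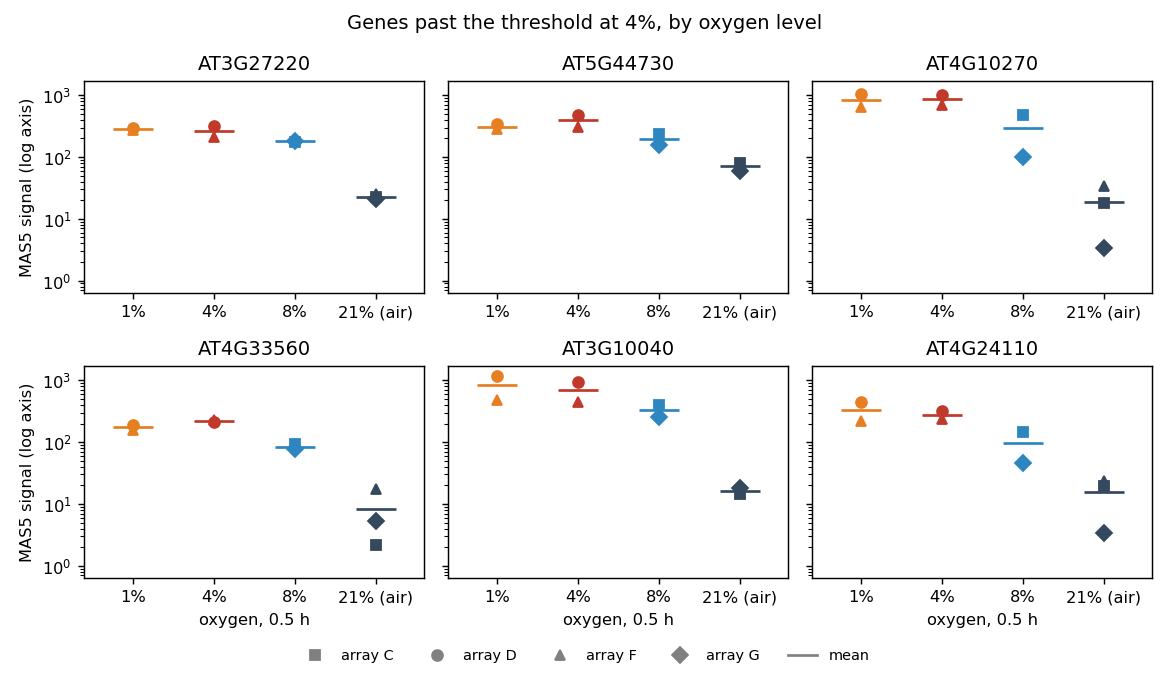
MAS5 signal (log axis) of the 6 named genes past the threshold at 4%, each point 1 array after 0.5 h at 1%, 4%, 8% or 21% oxygen (air), with a line at the group mean and the marker shape giving the replicate letter. In each gene the 8% arrays lie between the air arrays and the 4% arrays, and the 1% and 4% arrays lie at like heights, as for AT4G10270 with means of 845 at 1%, 857.5 at 4% and 293 at 8%.

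The response to 4% oxygen was last compared between 2 h and 0.5 h, each against air of its own duration (arrays D, E and F in air after 2 h). No probe set passed (0%), with a smallest adjusted p of 1 (limma), and 178 had an unadjusted p under 0.05. Of the 27 list members, 24 had a larger log2 fold change after 2 h, 4 of them with an unadjusted p under 0.05, and the median difference was 0.57. The median of the list was 2.15 after 2 h and 1.37 after 0.5 h. The largest difference was in AT2G17850, which had 444 and 449.7 at 4% after 2 h (D and F), against 12.4, 7.25 and 13.3 in air (D, E and F). Its log2 fold change was 4.76 after 2 h and 1.75 after 0.5 h, a difference of 3.0 (95% interval 0.81 to 5.19) with an unadjusted p of 0.00968. It passed, with an adjusted p of 0.0228, when the 0.5 and 2 h arrays were fitted alone. AT5G10040 had 681 and 732 at 4% after 2 h, and its difference was 2.28 (0.02 to 4.55). For lactate dehydrogenase AT4G17260 the difference was 0.78 (0.19 to 1.36), with signals of 582 and 433 at 4% after 2 h. The difference was near 0 in AT3G10040, whose log2 fold change was 4.97 after 2 h and 4.91 after 0.5 h, with an interval of the difference from -2.02 to 2.13, and in AT4G10270, at 5.18 after 2 h and 5.35 after 0.5 h.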

How the data were processed

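Total RNA of roots was hybridized to 28 arrays in 12 groups. The deposited values are MAS5 signals, a linear intensity per probe set, per the submitters' processing notes and the deposited table, and on each array their mean, trimmed by 2%, was 100. The MAS5 version and detection calls were not given in the sources used here. Of 22810 probe sets, 64 controls were left out. Log2(signal + 6) was fitted with limma 3.58.1 (R 4.3.3). The 12 group means were estimated together from the 28 arrays, leaving 16 residual degrees of freedom, and variances were moderated with a trend on intensity. In each of 4 two-sided tests, p values were adjusted by Benjamini-Hochberg over 22746 probe sets. Array numbers limit the precision. Names came from the platform annotation (1 gene for 13513 probe sets, several for 503, none for 8730) and RefSeq, which matched 13436 of them. Where several probe sets measured a gene, the brightest stood for it.

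Same-letter arrays at 0.5 h correlated at 0.46 to 0.727 after group means were removed, in all pairs, though in groups of 2 the deviations are equal and opposite. Pairs of different letters ran from -0.727 to 0.485. The highest of them was 1% array D with air array C, and 4% array D with air array C was at 0.429. Correlation was thus not limited to shared letters. The letter was taken as a pairing only in the replicate block fits and the letter F comparison. The main fit holds no letter term. Its p values, errors and intervals, given wherever no block is named, are therefore unpaired. Replicate block values are given beside the hypoxia-list genes whose call changed and the unnamed probe sets past the threshold. Named genes were those past the threshold, the 12 with the largest change each way among non-overlapping genes (unadjusted p under 0.05, higher mean signal at least 20) and up to 4 per list. The lists, members and tests were chosen with earlier results of these data known. Of 20 lists, 7 had under 3 named members. The fit was tested on simulated data with independent arrays and no letter effect, so that test cannot speak to the letter. Alternatives changed the normalization, pseudocount, filter, trend, arrays, block and annotation. Promoter motifs were not analysed here.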

Additional observations from a re-analysis of the deposited data

How the results depend on the processing

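The number of probe sets higher at 4% than in air after 0.5 h was 10, and each of the 10 was kept under quantile normalization, centring on array medians, both other pseudocounts, without the dimmest 40% of probe sets and without the intensity trend. It was 6 with the 0.5 h arrays alone (5 of the 10), 2 with the replicate block (2 of the 10) and 16 with the letter as a random block (10 of the 10). It was 6 over probe sets with 1 named gene. With the replicate block within the 0.5 h arrays, a fit chosen after seeing the data, it was 16 (8 of the 10). Leaving out 1 air array gave 7 (without array G, 7 of the 10) to 10 (without array F, 10 of the 10). Leaving out a 4% array leaves 1 in that group, and most of the 10 did not pass without array D. The block within the 0.5 h arrays also gave 2 lower probe sets, AT1G10585 and AT1G09500, where the other fits gave 0. Between 4% and 1%, leaving out 1 array gave 0 to 1, the 1 being SQN without the 1% array F. Between 4% and 8%, 1 probe set, AT1G21060, was lower at 4% and passed under quantile normalization, a pseudocount of 24, the random block and named probe sets alone. The response at 2 h and 0.5 h differed for 1 probe set, AT2G17850, with the 0.5 and 2 h arrays alone. The median of the hypoxia-inducible list, 1.37, was 1.16 at a pseudocount of 24, 1.52 without the dimmest probe sets, 1.12 with the replicate block, 1.06 with the block within the 0.5 h arrays, and 1.35 to 1.54 without 1 array. The causes were not tested, except that fewer arrays or probe sets are part of some of these settings. With 2 arrays at 4%, 3 in air and no detection calls, folds of genes that are dim in air, such as AT4G33560, are poorly determined.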

Other observations

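A further set of probe sets, chosen after their values were seen, had a log2 difference of -1 or lower both for array F at 4% minus array F in air and for array D at 4% minus the mean of air arrays C and G. There were 9 of them, 5.11% of the 176 in the F pair and 3.38% of the 266 in D over C and G, and none passed the threshold. Of the 9, 5 measure 1 named gene. AT3G63460, related to SEC31 of the coat of transport vesicles, had log2 differences of -1.12 in the F pair and -2.53 in D over C and G, and an unadjusted p of 0.0816 (limma). AT4G32640, related to another subunit of that coat, was not among the 9, with -0.68 and -1.53 in the same comparisons. With the replicate block its log2 fold change was -0.35 ± 0.25 (SE). The matrix metalloproteinase gene MMP had -1.23 and -1.79, and AT2G07360, AT3G10300 and AT1G26240 had -1.30, -1.05 and -1.34 in the F pair.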
